A study of Homo sapiens with 8 samples.

Results

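The mRNA decay machinery was followed here as 46 genes, namely the subunits of the exosome, the CCR4-NOT complex, the PAN2-PAN3 and PARN deadenylases, the decapping factors, the LSM1-7 ring, the XRN exonucleases and the factors of nonsense-mediated decay. They were chosen by name, by a rule that uses no measured value, although with earlier results of these data known. A probe was assigned to a member when its RefSeq accession mapped to the member's symbol. This gave 64 probes for 44 of the 46 genes, among 20249 genes with a probe on the array. CNOT6 and EXOSC10 had no matching probe, and the single probe of DIS3 was not well above background on any array. The remaining 43 members were tested, among 12125 genes tested in all.

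Transcript levels were read on 8 single-colour Agilent arrays. The cells were KYSE850, a human line established from a squamous cell carcinoma of the esophagus. Of the arrays, 4 arrays carried RNA from cells given control siRNA and 4 carried RNA from cells given siRNA against KHSRP. The study used several KHSRP siRNAs, and the labels do not say which of them was given, so that effects of one siRNA on other transcripts cannot be told apart from effects of KHSRP loss. Nothing in the labels says that the replicates were separate cultures, and p-values then measure only the spread between these arrays, which may be technical. Replicates 1 and 2 of both groups were on slide 1, and replicates 3 and 4 of both groups were on slide 2.

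A cytoplasmic mRNA is usually degraded in steps. Deadenylases first shorten its poly(A) tail, after which the body is degraded from the 3′ end by the exosome, or the cap is removed and the body is degraded from the 5′ end by XRN1. Nonsense-mediated decay feeds transcripts with premature stop codons into the same enzymes. KHSRP is a KH-domain protein that binds AU-rich elements and is known to recruit the exosome, PARN and decapping factors to the mRNAs that carry them. The comparison asks whether the transcripts of these partners differed when KHSRP was knocked down.

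Levels are given as log2 processed signal minus the 75th percentile of the same array, so that 0 marks a probe whose signal equals that percentile, and levels of different probes are not compared with each other. A member was represented by its brightest tested probe. Differences are log2 fold changes, KHSRP siRNA minus control siRNA, with the standard error (SE), and were tested with limma with Benjamini-Hochberg adjustment over 18761 probes. A probe with an adjusted p under 0.05 is said to have passed the test.

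The targeted transcript was strongly reduced. The brighter KHSRP probe had levels of 6.03, 5.81, 6.39 and 6.08 on the control siRNA arrays and 2.52, 2.58, 2.88 and 2.85 on the KHSRP siRNA arrays. The groups were far apart, with a difference of -3.37 (SE 0.16, limma adjusted p = 5.95e-05), or 9.66% of the control level. An exact two-sided permutation test gave p = 0.0286, the smallest that 4 against 4 arrays allow. The other KHSRP probe was well above background on 4 control siRNA arrays and on 0 KHSRP siRNA arrays, and was at least 5.83-fold lower, counted against the detection floor of each KHSRP siRNA array. All 9 squamous epithelial markers looked at, including KRT5, KRT14 and TP63, were well above background on 8 of 8 arrays, and 0 of 3 endothelial markers were on any. Of 5 fibroblast markers, COL1A1 was the only one above background. Of the leukocyte markers, CD14 was above background on 8 arrays, and PTPRC and CD3E were on 4 and 5 (the best probe in each group). Between 19145 and 20938 of 42405 probes were well above background per array.

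Of the 43 tested members, 4 passed the test. PARN, PATL1 and LSM14A were lower in KHSRP-knockdown cells, and DDX6 was higher. Over all tested genes 6.19% passed (751 of 12125), compared with 9.30% of the members, so that the members stood close to the array as a whole. Lower calls made up 4.06% of all tested genes and higher calls 2.14%. Without adjustment, 11 of 43 members (25.6%) had p under 0.05, against 20.8% of all tested genes. The control and KHSRP siRNA groups did not overlap for 8 members (18.6%), compared with 16.2% of all tested genes. The median difference over the members was -0.05, and 27 of 43 members were on the lower side, whereas the median over all tested genes was 0.01 with 49.1% of genes on the lower side. CNOT2, PAN2, LSM5, XRN2 and UPF2, each at most 0.07 from 0, changed sign under another scaling or background setting. In RNA of whole cultures, fewer cells with a transcript and less transcript per cell cannot be told apart.

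**Figure D1:**
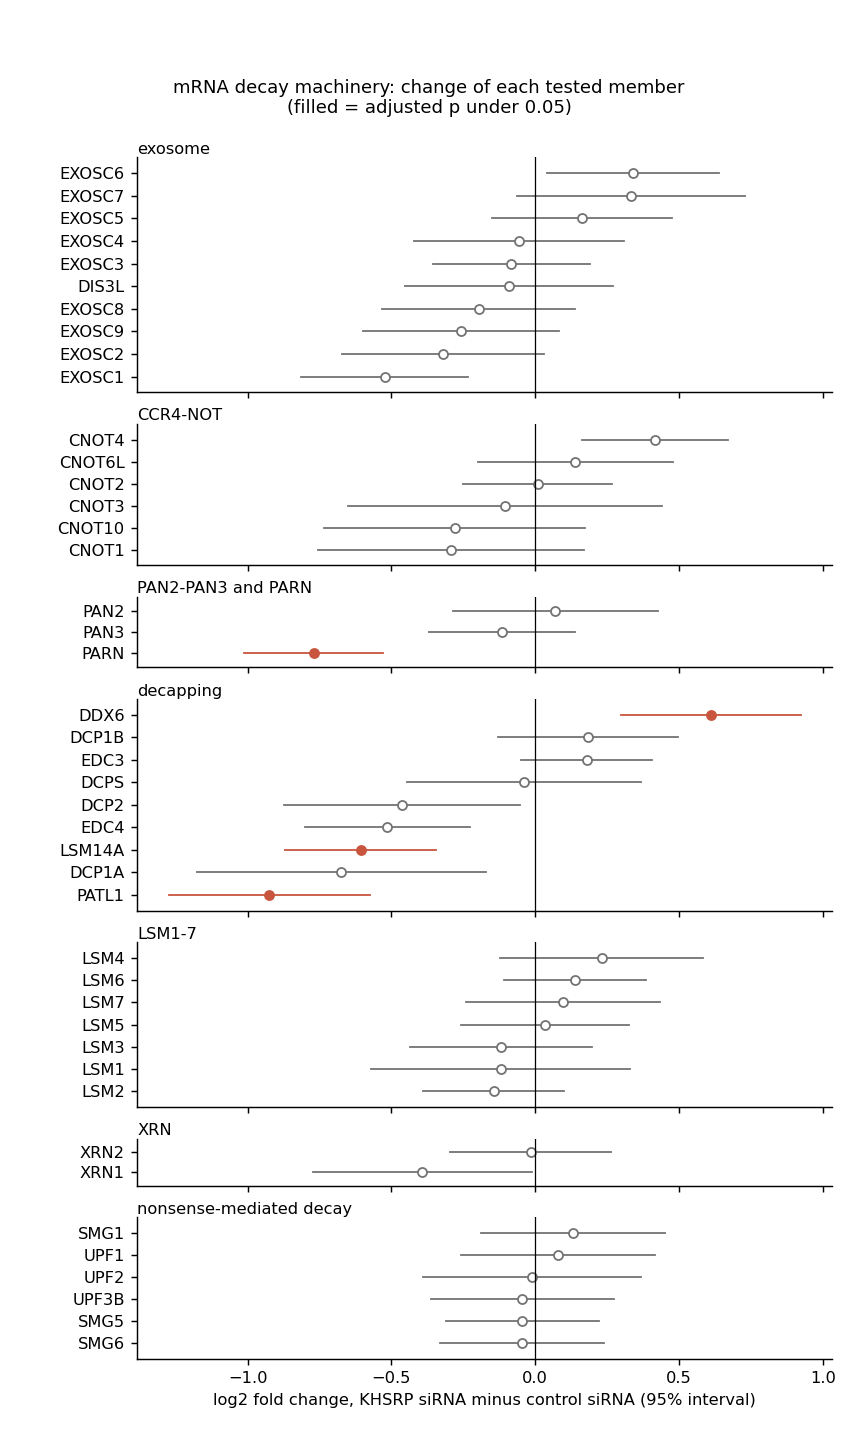
Log2 fold change (KHSRP siRNA minus control siRNA) of each of the 43 tested members, grouped by complex, with 95% intervals from limma over 4 against 4 arrays. Filled red points passed the test at an adjusted p under 0.05. PARN, LSM14A and PATL1 lie to the left, DDX6 to the right, and the LSM1-7 and nonsense-mediated decay members lie close to 0.

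The decapping factors held 3 of the 4 called members, with 3 of 9 called (33.3%), against 6.19% of all tested genes. Of these 3 calls, PATL1 held in all 8 runs that each left out an array, LSM14A in 3 and DDX6 in 1. Decapping is carried out by DCP2 with its activators DCP1A and DCP1B, and is helped by EDC3, EDC4, PATL1, LSM14A and the helicase DDX6, many of which gather in cytoplasmic P-bodies. The median difference of the 9 was -0.46, the lowest of the 7 groups. In this group 6 members were lower and 3 were higher.

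PATL1 is a scaffold that links DDX6, the LSM1-7 ring and the decapping enzyme. Its levels were 0.97, 1.25, 0.69 and 0.72 on the control siRNA arrays and 0.10, -0.18, 0.08 and -0.07 on the KHSRP siRNA arrays. Every KHSRP siRNA array was below every control siRNA array. PATL1 fell by 0.92 (SE 0.15, limma adjusted p = 0.0118), to 52.7% of the control level, which was the largest fall among the members.

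LSM14A is an RNA-binding partner of DDX6 that is needed for P-bodies. Its levels were 3.29, 3.42, 3.55 and 3.49 with control siRNA and 2.65, 2.88, 2.94 and 2.87 with KHSRP siRNA, without overlap. It fell by 0.61 (SE 0.11, limma adjusted p = 0.0201), to 65.7% of the control level. This call was lost when control siRNA replicate 2, 3 or 4 or KHSRP siRNA replicate 1 or 2 was left out, with adjusted p reaching 0.0618, while the difference stayed between -0.66 and -0.55 over the 8 runs that each left out an array.

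DDX6 is a DEAD-box helicase that represses translation and promotes decapping, and it binds PATL1, LSM14A and EDC3 as well as CNOT1. Its brightest probe had levels of 1.27, 1.40, 1.56 and 1.74 with control siRNA and 1.93, 2.06, 2.20 and 2.23 with KHSRP siRNA. The groups did not overlap, and DDX6 rose by 0.61 (SE 0.14, limma adjusted p = 0.0386), to 153% of the control level. It was the only member called higher. The call held in 1 of the 8 runs that left out an array, the one without control siRNA replicate 4, and the adjusted p reached 0.114 in the others. Over all 24 alternatives DDX6 was called in 11, and its call was also lost with median scaling (0.54, adjusted p = 0.0687), with the mean of its probes (0.62, adjusted p = 0.117) and with no filter on dim probes (adjusted p = 0.182). The second DDX6 probe had levels of -1.61, -0.79, -1.04 and -0.38 with control siRNA and -0.50, -0.69, -0.18 and 0.07 with KHSRP siRNA. These overlapped, and its difference of 0.63 (SE 0.27, limma adjusted p = 0.247) did not pass the test.

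DDX6 is also among the genes that the study listed as predicted targets of miR-130b and miR-301a, both of which it followed in KHSRP-knockdown cells. That list was drawn from genes that were higher on these same arrays, so it is not independent evidence of the direction. The mature strands of both miRNAs are shown because they share the seed through which such a target would be read, written in capitals at bases 2 to 8 (RefSeq, GRCh38.p14). No site in the DDX6 mRNA was searched for.
hsa-miR-130b-3p: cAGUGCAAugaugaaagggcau
hsa-miR-301a-3p: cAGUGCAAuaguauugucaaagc

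The remaining decapping factors did not pass the test. EDC4, a scaffold for DCP1A and DCP2, was nearest to it, with levels of 4.38, 4.63, 4.37 and 4.48 with control siRNA and 3.91, 4.05, 4.11 and 3.73 with KHSRP siRNA. These did not overlap, and the difference was -0.51 (SE 0.13, limma adjusted p = 0.0529). The dimmer EDC4 probe, which was well above background on 3 of 4 KHSRP siRNA arrays, gave -0.43 (SE 0.21, adjusted p = 0.317). DCP1A had levels of 3.12, 3.49, 3.48 and 3.77 with control siRNA and 2.37, 2.82, 3.32 and 2.66 with KHSRP siRNA. One array, KHSRP siRNA replicate 3, lay within the control range, and the difference was -0.67 (SE 0.22, limma adjusted p = 0.127). The second DCP1A probe gave -0.75 (SE 0.19, adjusted p = 0.0592) and did not overlap between the groups. DCP2, the decapping enzyme itself, showed the same arrangement, with 0.51, 0.78, 0.60 and 1.02 against 0.02, 0.18, 0.70 and 0.15, and a difference of -0.46 (SE 0.18, limma adjusted p = 0.196). Again only KHSRP siRNA replicate 3 was within the control range. Without that array, a run picked out after the values were seen, the differences were -0.85 for DCP1A and -0.61 for DCP2. Their limma adjusted p were then 0.0526 and 0.0757, and 0 of the 8 runs that each left out an array called either gene. With the replicate block by the numbers of the deposited matrix both were called (limma adjusted p = 0.00468 and 0.00846), as were 33.0% of all tested genes. With the block by the label numbers neither was called (limma adjusted p = 0.173 and 0.313). DCP1B (0.18), EDC3 (0.18) and the scavenger enzyme DCPS (-0.04), which hydrolyses the cap left after decay from the 3′ end, were closer to 0 and had adjusted p of 0.386 or more.

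**Figure D2:**
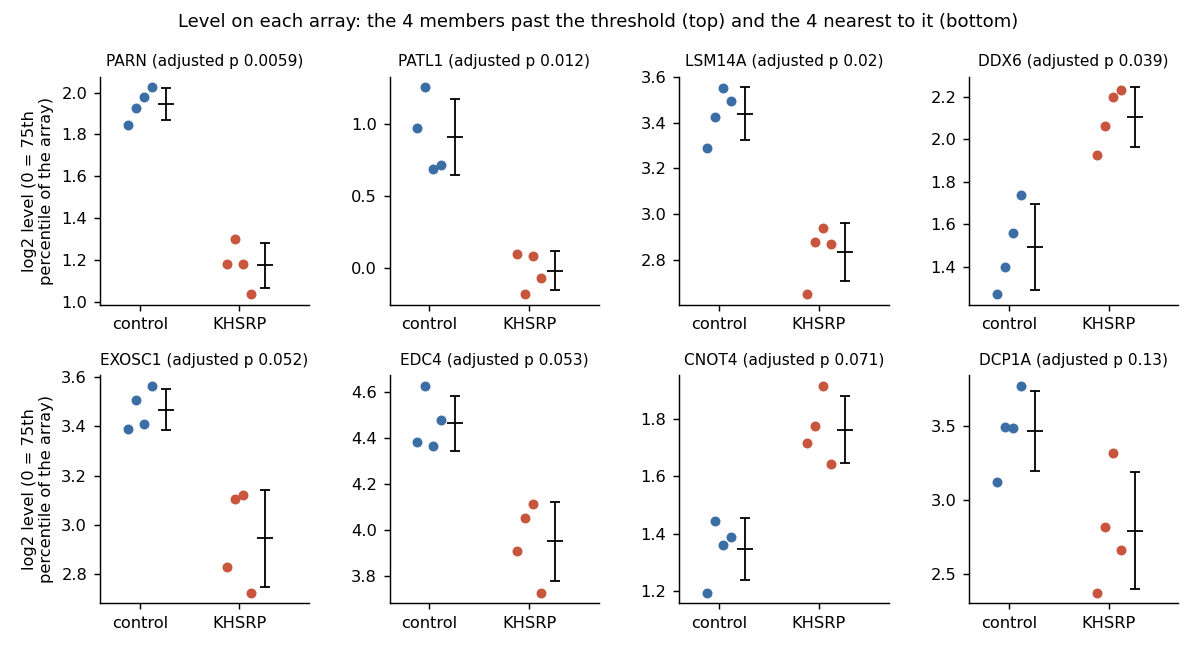
Log2 level relative to the 75th percentile of the array for the 4 members that passed the test (top) and the 4 with the next lowest adjusted p (bottom). Each point is 1 array, placed from replicate 1 to 4 within a group, and the bars show mean ± SD (n = 4); the vertical axes differ and do not start at 0. The groups are separate in 7 of the 8 panels, whereas in the DCP1A panel KHSRP siRNA replicate 3 (3.32) lies above control siRNA replicate 1 (3.12).

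Among the deadenylases outside CCR4-NOT, PARN was lower. PARN is a poly(A)-specific exonuclease that also trims small nucleolar and telomerase RNAs. Its levels were 1.85, 1.93, 1.98 and 2.02 with control siRNA and 1.18, 1.30, 1.18 and 1.04 with KHSRP siRNA. The groups were separated by several times their SDs of 0.08 and 0.11 (n = 4 each). PARN fell by 0.77 (SE 0.11, limma adjusted p = 0.00586), to 58.7% of the control level, and had the lowest adjusted p of the members. PARN and PATL1 passed the test in all 8 runs that left out an array, with adjusted p up to 0.0251 and 0.0466. PAN2, the catalytic subunit of the other deadenylase, had levels of -1.27, -0.82, -1.46 and -1.06 against -1.15, -1.08, -0.91 and -1.20, which overlapped, and a difference of 0.07 (SE 0.16, limma adjusted p = 0.886). Its partner PAN3, which binds the poly(A)-binding protein, gave -0.12 (SE 0.11, adjusted p = 0.663). Their 95% intervals ran from -0.29 to 0.43 and from -0.37 to 0.14.

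The promoters of PARN and PATL1, which fell, and of DDX6, which rose, are shown because these are the members whose level moved. Each is the 300 bases from 250 before to 50 after the annotated start, 5′ to 3′ on the gene's strand (RefSeq, GRCh38.p14). Capitals mark any of 5 motifs searched on both strands, namely the GC box (GGGCGG), the CCAAT box (CCAAT), an ETS core (CCGGAA), the TATA box (TATAAA) and an E-box (CACGTG). None of these motifs contains another.
PARN, chr16:14630211-14630510, minus strand: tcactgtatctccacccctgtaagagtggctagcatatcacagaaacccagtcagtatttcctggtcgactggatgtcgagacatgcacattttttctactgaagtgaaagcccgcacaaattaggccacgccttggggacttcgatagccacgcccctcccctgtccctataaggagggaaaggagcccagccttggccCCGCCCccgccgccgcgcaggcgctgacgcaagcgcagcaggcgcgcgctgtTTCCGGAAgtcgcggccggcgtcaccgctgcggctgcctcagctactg
PATL1, chr11:59668988-59669287, minus strand: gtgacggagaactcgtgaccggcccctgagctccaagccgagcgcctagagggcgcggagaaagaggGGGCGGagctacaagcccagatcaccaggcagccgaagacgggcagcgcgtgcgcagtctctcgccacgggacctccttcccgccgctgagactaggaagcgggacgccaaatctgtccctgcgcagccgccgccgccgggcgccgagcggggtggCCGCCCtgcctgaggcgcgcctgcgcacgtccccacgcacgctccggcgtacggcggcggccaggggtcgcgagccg
DDX6, chr11:118791695-118791994, minus strand: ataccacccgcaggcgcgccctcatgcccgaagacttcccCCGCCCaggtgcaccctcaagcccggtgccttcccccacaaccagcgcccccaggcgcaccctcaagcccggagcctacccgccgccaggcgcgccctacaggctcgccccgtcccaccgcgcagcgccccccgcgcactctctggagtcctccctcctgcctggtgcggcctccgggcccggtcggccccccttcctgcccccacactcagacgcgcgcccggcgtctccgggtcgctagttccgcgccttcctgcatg
The PARN promoter held 1 GC box and an ETS core on both strands. The PATL1 promoter held 2 GC boxes and the DDX6 promoter 1, and neither held the other motifs. A GC box was present in 33 of the 40 member promoters in the table (82.5%), compared with 44.6% of all 27305 promoters there, of which 35.7% held a CCAAT box, 17.6% an ETS core and 7.43% an E-box, while 3264 of them held a TATA box. Among the member promoters, 17 held a CCAAT box, 12 an ETS core, 4 an E-box and 1 a TATA box. The 27305 promoters include those of genes not among the 12125 tested here. Shares over the tested genes alone were not counted, so the difference may not be particular to the members. LSM14A has no entry in the table.

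The exosome is a ring of EXOSC4 to EXOSC9 with a cap of EXOSC1, EXOSC2 and EXOSC3, and degrades RNA through its associated nucleases DIS3, DIS3L and EXOSC10. Of 12 members, 10 were tested and 0 passed on their brightest probe. Without adjustment 2 (20%) had a limma p under 0.05, against 20.8% of all tested genes. The median difference was -0.09, with 7 members lower and 3 higher.

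EXOSC1 came closest to the threshold. Its levels were 3.39, 3.51, 3.41 and 3.57 with control siRNA and 2.83, 3.11, 3.12 and 2.73 with KHSRP siRNA, without overlap, and it differed by -0.52 (SE 0.13, limma adjusted p = 0.0521). The largest difference upward was that of EXOSC6, at -0.22, -0.17, 0.13 and 0.14 against 0.37, 0.15, 0.43 and 0.29. These groups met at 0.14 and 0.15 without overlapping, and the difference was 0.34 (SE 0.13, limma adjusted p = 0.189). A cap subunit and a ring subunit of the same complex thus lay on opposite sides of 0, neither past the threshold.

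The 2 probes of EXOSC2 differed in call. The brighter one had levels of 1.84, 1.58, 2.03 and 1.60 against 1.51, 1.39, 1.19 and 1.69, which overlapped, with a difference of -0.32 (SE 0.15, limma adjusted p = 0.307). The dimmer one had levels of 1.05, 1.08, 1.25 and 0.91 against 0.20, 0.40, 0.44 and 0.41. Its groups did not overlap, and it passed the test at -0.71 (SE 0.12, limma adjusted p = 0.0113) and in all 8 runs that left out an array. Both probes pointed downward. When the tested probes of a gene were averaged, EXOSC2 was called at -0.51. The other ring and cap subunits lay between -0.26 (EXOSC9) and 0.33 (EXOSC7), and the nuclease DIS3L, which acts in the cytoplasm, at -0.09 (SE 0.16). None of these passed the test.

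**Figure D3:**
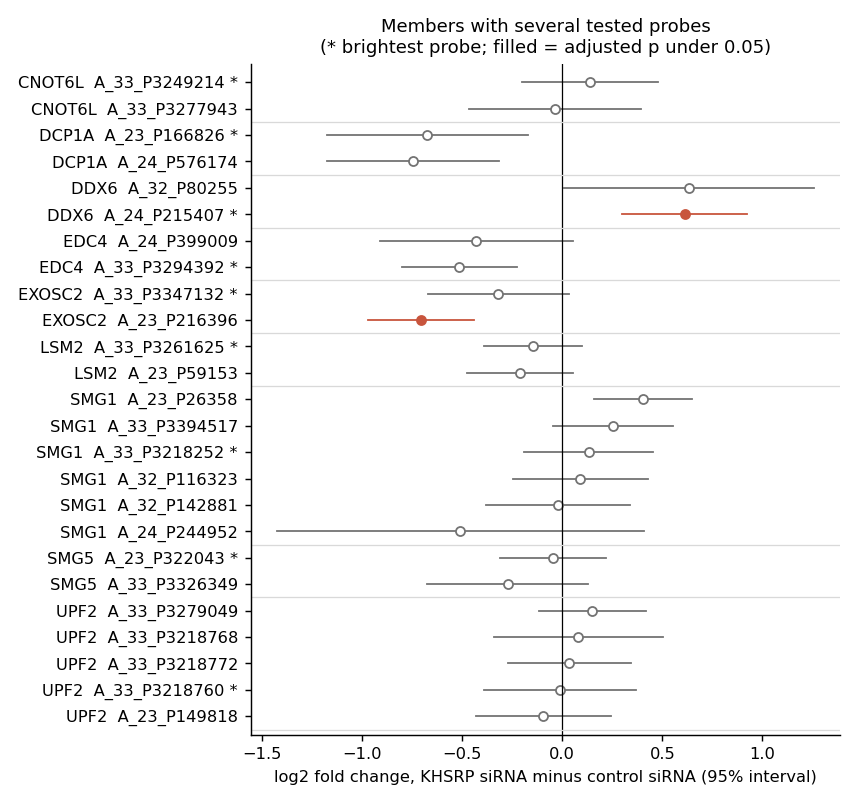
Log2 fold change (KHSRP siRNA minus control siRNA) with 95% intervals for every tested probe of the 9 members that have several, over 4 against 4 arrays. An asterisk marks the brightest probe of a gene, and filled red points passed the test. The probes of DCP1A, EDC4, EXOSC2 and DDX6 lie on one side of 0, those of SMG1, UPF2 and CNOT6L on both.

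CCR4-NOT is the main cytoplasmic deadenylase and is built on the scaffold CNOT1. Of 7 members, 6 were tested and 0 passed. Without adjustment 1 (16.7%) had a limma p under 0.05, against 20.8% of all tested genes. The median difference was -0.05, with 3 members higher and 3 lower. CNOT4, an E3 ubiquitin ligase associated with the complex, had levels of 1.19, 1.44, 1.36 and 1.39 with control siRNA and 1.72, 1.78, 1.92 and 1.64 with KHSRP siRNA. These did not overlap, and the difference was 0.42 (SE 0.11, limma adjusted p = 0.0705). Its other 3 probes were each well above background on at most 1 array and were not tested. CNOT1 had the largest difference downward, from -0.85, -0.88, -0.90 and -0.92 to -1.66, -0.61, -1.22 and -1.23. The KHSRP siRNA arrays lay on both sides of the control range, and the difference was -0.29 (SE 0.20, limma adjusted p = 0.505). Its SD with control siRNA, 0.03, was the lowest of any member in a group and its SD with KHSRP siRNA, 0.43, the highest. The deadenylase CNOT6L had a pair of tested probes that differed in sign. The brighter gave 0.14 (SE 0.15) from levels of -0.74, -0.49, -0.31 and -0.74 against -0.23, -0.59, -0.60 and -0.31. The dimmer gave -0.04 (SE 0.19) from -1.79, -2.07, -1.38 and -2.14 against -1.81, -2.17, -1.77 and -1.77. Both overlapped between the groups, with limma adjusted p of 0.704 and 0.954. CNOT2 (0.01), CNOT3 (-0.11) and CNOT10 (-0.28) did not pass the test.

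The LSM1-7 ring binds the oligoadenylated 3′ end of a deadenylated mRNA and stimulates decapping. All 7 members were tested and 0 passed, with 0 at an unadjusted limma p under 0.05, against 20.8% of all tested genes. The median difference was 0.03, and the members ran from -0.14 to 0.23. LSM4 was at the upper end, with levels of 4.06, 4.22, 3.71 and 4.03 against 4.30, 4.46, 4.22 and 3.97, which overlapped, and a difference of 0.23 (SE 0.15, limma adjusted p = 0.487). LSM2 was at the lower end, with 5.75, 5.97, 5.92 and 5.93 against 5.71, 5.74, 5.89 and 5.66 and a difference of -0.14 (SE 0.11, limma adjusted p = 0.538). The 95% intervals of the 7 differences lay between -0.57 and 0.58, so that a change beyond these bounds was outside the interval of every ring subunit, whereas PATL1, which the ring binds, had an interval from -1.27 to -0.57.

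Of the 5′ to 3′ exonucleases, XRN1 acts in the cytoplasm and XRN2 in the nucleus. XRN1 had levels of -0.94, -0.89, -0.57 and -0.32 with control siRNA and -1.15, -1.22, -0.83 and -1.09 with KHSRP siRNA. The groups overlapped through KHSRP siRNA replicate 3, and the difference was -0.39 (SE 0.17, limma adjusted p = 0.238). XRN2 gave -0.02 (SE 0.12, adjusted p = 0.971) and crossed 0 when the 75th percentile was taken over detected probes. No member of this pair passed the test, and their median difference was -0.20. Without adjustment 1 of them had a limma p under 0.05, against 20.8% of all tested genes.

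In nonsense-mediated decay the helicase UPF1 is recruited with UPF2 and UPF3B and is phosphorylated by the kinase SMG1, after which the endonuclease SMG6 cuts the mRNA or SMG5 brings in deadenylation and decapping. All 6 members were tested and 0 passed, with 0 at an unadjusted limma p under 0.05, against 20.8% of all tested genes. The median difference was -0.03, and the members lay within -0.05 to 0.13, the narrowest range of any group with more than 3 tested members. SMG6 was at the lower end, with levels of -0.34, -0.14, -0.53 and -0.44 against -0.43, -0.29, -0.58 and -0.35 and a difference of -0.05 (SE 0.13, limma adjusted p = 0.91). The brightest SMG1 probe was at the upper end, with 2.14, 2.16, 2.30 and 1.98 against 2.37, 2.23, 1.99 and 2.52 and a difference of 0.13 (SE 0.14, limma adjusted p = 0.705). Both overlapped between the groups. The 6 SMG1 probes ran from -0.51 to 0.40 with none past the test, and the highest of them, at 1.79, 1.82, 2.02 and 1.87 against 2.19, 2.34, 2.37 and 2.21, did not overlap (adjusted p = 0.0695). SMG1 has near-identical pseudogene copies whose transcripts its probes may also read, so its values are uncertain. The 5 UPF2 probes ran from -0.09 to 0.15, with limma adjusted p of 0.572 or more. The brightest, with 2.93, 2.69, 3.05 and 3.21 against 2.85, 2.66, 3.13 and 3.18, differed by -0.01 (SE 0.17). UPF1 (0.08), UPF3B (-0.04) and SMG5 (-0.05) did not pass the test either, and the 95% intervals of the 6 members lay between -0.39 and 0.45.

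Averaged over a complex, the arrays of the 2 groups mostly overlapped. For each array the median over a complex was taken of each member's level minus its control mean. In the decapping group this median was between -0.20 and 0.05 on the control siRNA arrays, and was -0.55, -0.42, -0.03 and -0.57 on KHSRP siRNA replicates 1 to 4. Replicate 3 was thus inside the control range and the other three were below it. Under the matrix numbers, replicate 3 goes with control siRNA replicate 4 and replicate 4 with control siRNA replicate 3. The KHSRP siRNA array of each of the 4 pairs was then below its control partner in this median, as it was for DCP1A and DCP2. With the label numbers the same held for this median and for DCP1A. For DCP2, KHSRP siRNA replicate 3 (0.70) was then above control siRNA replicate 3 (0.60). In the exosome the medians ran from -0.06 to 0.12 with control siRNA and from -0.22 to 0.07 with KHSRP siRNA, and in the LSM1-7 ring from -0.15 to 0.15 and from -0.06 to 0.20. The XRN pair alone did not overlap, at -0.08 to 0.10 against -0.24 to -0.17, with only 2 genes behind it.

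**Figure D4:**
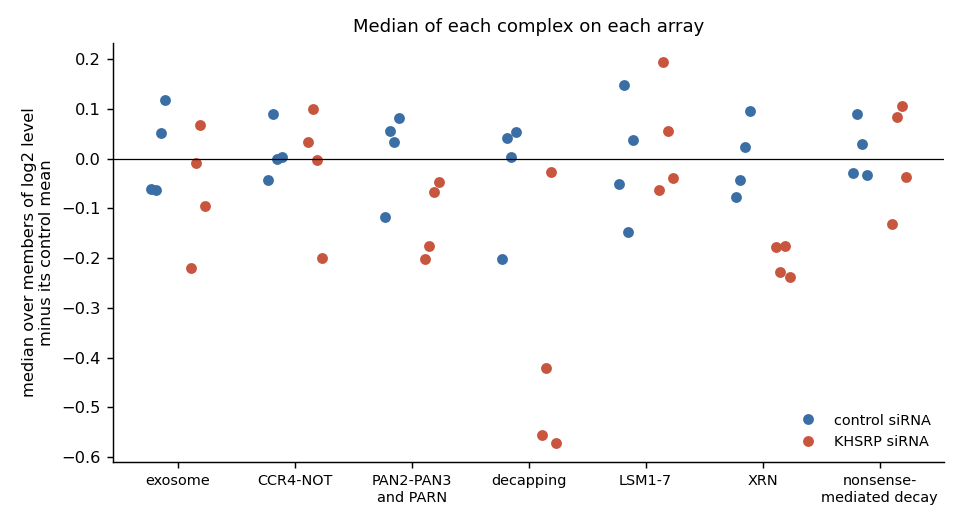
Median over the tested members of each complex of the log2 level minus the member's control mean, for each of the 8 arrays (points placed from replicate 1 to 4 within a group). The decapping medians of KHSRP siRNA replicates 1, 2 and 4 lie between -0.57 and -0.42, and that of replicate 3 at -0.03 lies among the control siRNA arrays.

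The members were also split by activity, after their values were seen. Of 12 nucleases and cap-hydrolysing enzymes, 9 were tested, with 1 (PARN) called, a median difference of -0.05 and a range from -0.77 to 0.14. The other 34 members, all tested, had 3 called, a median of -0.05 and a range from -0.92 to 0.61. Over all tested genes 6.19% were called, and counts this small set neither part off from the array as a whole.

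The called members had the same direction within each slide. Their groups did not overlap over the 8 arrays, so this direction was fixed in advance and is no further support. Within slide 1 the differences were -0.65 for PARN, -1.15 for PATL1, -0.59 for LSM14A and 0.66 for DDX6, and within slide 2 they were -0.89, -0.70, -0.62 and 0.56. With 2 against 2 arrays, 0 of 18761 probes passed limma's test within either slide, while 2112 and 1022 had an unadjusted p under 0.05.

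The calls also depended on how replicates were paired. The deposited matrix of normalised values carries KHSRP siRNA replicates 3 and 4 under each other's number, and which numbering is right is not given in the sources used here. With the numbers of the matrix as a block, 16 of 43 members (37.2%) passed, 11 lower and 5 higher, as did 33.0% of all tested genes. The 4 called members stayed called (adjusted p of 0.0031 for PARN, 0.00825 for PATL1, 0.00311 for LSM14A and 0.0039 for DDX6). They were joined by EXOSC1, EXOSC2, EXOSC9, CNOT10, DCP1A, DCP2, EDC4 and XRN1 on the lower side and by EXOSC6, EXOSC7, CNOT4 and LSM4 on the higher side. With the numbers of the labels as a block in limma, 0 members passed, 10 had an unadjusted p under 0.05, and the adjusted p of the 4 were 0.0701, 0.0904, 0.0808 and 0.0822. By the label numbers, the arrays of pairs 3 and 4 deviated from their group means in opposite directions (correlations of -0.67 and -0.64). That fit called 156 of all 18761 probes, against 1039 without a block, so the 0 members went with few calls over the whole array.

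The rest of the pathway was followed through 46 further decay factors, of which 44 were tested. Among these 4 passed (9.09%), all of them lower. Over all tested genes 6.19% were called in either direction and 4.06% were called lower. The share was thus above that of lower calls over the array, with only 4 calls behind it. The median difference was -0.06, with 28 lower and 16 higher. PABPC1, the main cytoplasmic poly(A)-binding protein, which shields the tail and recruits PAN2-PAN3 and CCR4-NOT, had levels of 7.02, 6.98, 7.04 and 6.70 with control siRNA and 5.50, 5.63, 5.76 and 5.56 with KHSRP siRNA. The groups were far apart, and PABPC1 fell by 1.32 (SE 0.12, limma adjusted p = 0.00108), to 39.9% of the control level, more than any member. It was called in all 8 runs that left out an array. PABPC1 has close paralogs and processed copies that its single probe may also read.

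CNOT11, which forms a module of CCR4-NOT with CNOT10, had levels of 2.0, 2.05, 2.04 and 2.01 against 1.52, 1.62, 1.52 and 1.40 and fell by 0.51 (SE 0.10, limma adjusted p = 0.0221). PNRC2, a small protein that binds DCP1A and UPF1, had 1.56, 1.50, 1.61 and 1.58 against 0.96, 0.98, 1.32 and 1.01 and fell by 0.49 (SE 0.12, limma adjusted p = 0.0462), while its other tested probe differed by -0.07 and did not pass. SKIC8, a subunit of the SKI complex that feeds RNA to the cytoplasmic exosome, had 2.50, 2.70, 2.39 and 2.56 against 2.01, 2.04, 2.21 and 2.02 and fell by 0.47 (SE 0.11, limma adjusted p = 0.0493). None of the 3 overlapped between the groups. CNOT11 and PNRC2 each stayed called in 1 of the 8 runs that left out an array, and SKIC8 in 0. The catalytic CNOT7 and CNOT8 differed by -0.02 and 0.06, and the PABPC1 relative PABPC4 by -0.15 (adjusted p = 0.672). With the matrix numbers as a block, 17 of the 44 factors were called, 12 of them lower, and the 4 called factors stayed called (adjusted p of 0.00214 for PABPC1, 0.00584 for CNOT11, 0.0105 for PNRC2 and 0.0105 for SKIC8), beside the 33.0% of all tested genes called in that fit. With the label numbers as a block, PABPC1 alone of the 4 stayed under the threshold, at an adjusted p of 0.0372.

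**Figure D5:**
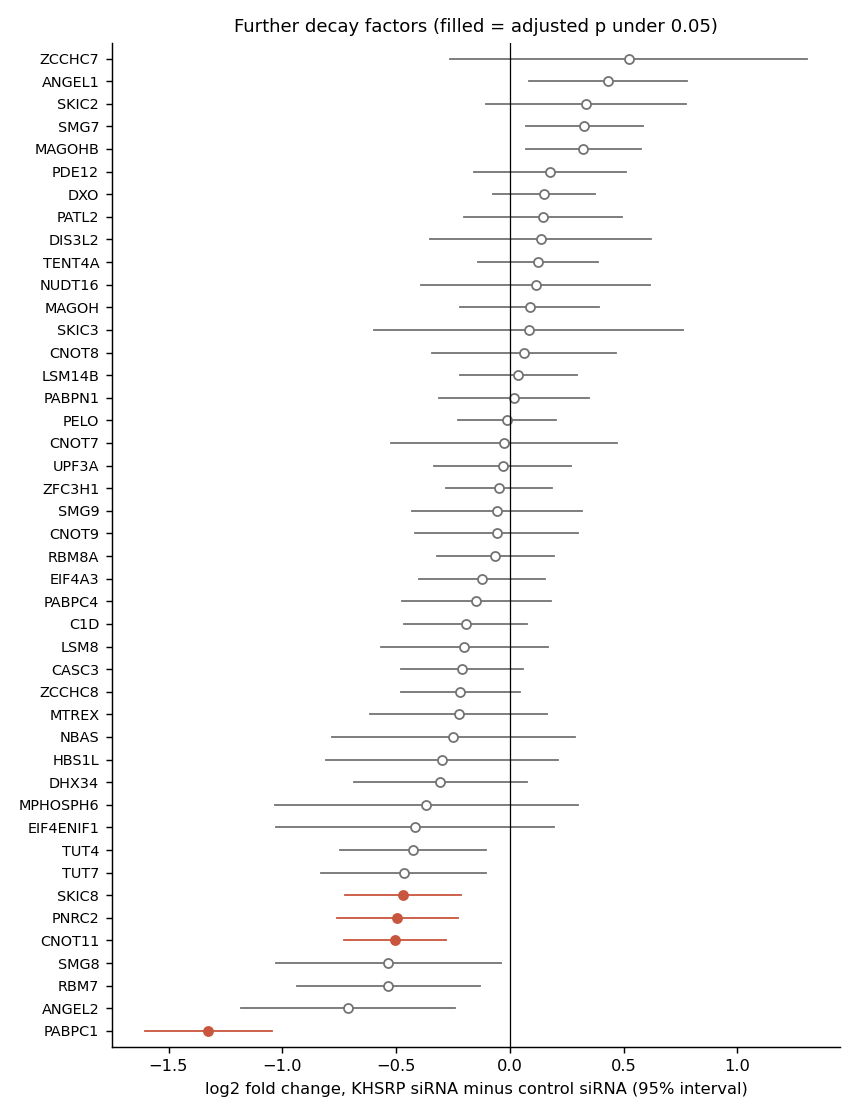
Log2 fold change (KHSRP siRNA minus control siRNA) with 95% intervals for the 44 tested further decay factors, over 4 against 4 arrays; filled red points passed the test. PABPC1 lies apart at -1.32, and CNOT11, PNRC2 and SKIC8 lie between -0.51 and -0.47.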

How the data were processed

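Labelled cRNA from KYSE850 cells was measured on 8 Agilent arrays, 4 per group by the labels. The deposited scanner files hold linear fluorescence intensity per spot, which the authors extracted with Agilent Feature Extraction (11.5.1.1 per the file headers, 12.6 per the labels), background-subtracted and detrended within the array but not scaled between arrays. The authors also deposited a matrix of normalised log2 values (GeneSpring, per the methods), which was used as an alternative. In that matrix the columns of KHSRP siRNA replicates 3 and 4 match each other's scanner values; here the scanner files set the numbers. The number of arrays limits the precision.

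Control spots and spots flagged as outliers (265 to 346 per array) were left out, spots were averaged per probe as log2, and the 75th percentile of each array was subtracted. No spot was saturated (0 on each array). Probes were tested when at least 0.5 of their spots were well above background on all 4 arrays of a group. RefSeq accessions gave symbols (GRCh38.p14 tables, used for names and for promoter and miRNA sequences) to 27241 of 42405 probes. Differences between the groups were fitted without a block in R 4.3.3 by limma 3.58.1 (lmFit, then eBayes, two-sided p). The p-values were adjusted after Benjamini-Hochberg across 18761 probes. The steps were tested on simulated data whose noise was independent between arrays. Deviations shared between arrays, described below for these data, were not simulated. For the dim KHSRP probe, the floor of an array was the faintest signal among its probes well above background. Figures and counts used Python 3.11.15.

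The members and lists were chosen with earlier results of these data known, and no test was run on a list. All members are accounted for; full values are given for members called, for the largest rise and fall in each complex, and for members whose probes differ in sign or call, and, after their values were seen, for EDC4, DCP1A and DCP2. The further decay factors that are named with full values are those called.

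Whether replicate numbers pair the arrays was checked by the correlation of deviations from the group means. By the labels it was 0.52, 0.43, -0.67 and -0.64 for numbers 1 to 4. By the matrix numbers it was 0.52, 0.43, 0.83 and 0.84. Control siRNA replicate 1 also correlated with KHSRP siRNA replicate 4 (0.41), and control siRNA replicate 2 with KHSRP siRNA replicate 3 (0.42). Control siRNA replicate 3 correlated with KHSRP siRNA replicate 1 (0.38), and control siRNA replicate 4 with KHSRP siRNA replicate 2 (0.38). The deviations are thus shared beyond pairs. Control siRNA replicates 1 and 3 went with KHSRP siRNA replicates 1 and 4, and control siRNA replicates 2 and 4 with KHSRP siRNA replicates 2 and 3. Between these sets every correlation was negative, from -0.68 to -0.13, so that label numbers 3 and 4 each join arrays of different sets. Which arrays are partners within a set is not settled by these correlations. No fit used the sets as a block. Alternatives covered scaling, background, the filter, slide and replicate blocks, array weights, the variance prior, the mean of a gene's probes, the methods' t-test, and leaving out each array in turn. One marker gene is not reported here.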

Additional observations from a re-analysis of the deposited data

Results flagged for a closer look

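CNOT2, a CCR4-NOT subunit, had 1 array apart from the others of its group: KHSRP siRNA replicate 3 was at 2.73, above the next highest at 2.52, a gap of 0.881 of the group's whole range. It was the only such case in 88 groups of 4 arrays looked at (43 members and KHSRP, both groups), where chance alone flags about 1 in 20.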

How the results depend on the processing

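The number of members called was 4 of 43. It was 7 with the 75th percentile of detected probes, with array weights and with the methods' t-test, which without adjustment put 11 of 43 members and 3710 of 18761 probes under 0.05 and after Benjamini-Hochberg adjustment 1081 probes. Each of these settings added EXOSC1, CNOT4 and EDC4. It was 1 (PARN) with no filter on dim probes, 16 with the replicate block by matrix numbers, 0 with the replicate block by label numbers and 0 within slide 1 or slide 2 (limma, with 10, 7 and 4 members at an unadjusted p under 0.05). It ran from 2 to 3 when 1 array was left out. Over all probes 1039 were called, against 570 with median scaling, 319 of 42405 with no filter, 156 and 5644 with the blocks by label and matrix numbers, and 489 to 766 when 1 array was left out. The methods name no test for the arrays.

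KHSRP kept its value within slides (-3.37 in each) but not its call (adjusted p = 0.19 and 0.777). It ran from -3.46 to -3.27 when 1 array was left out and was called each time. The XRN median of -0.20 was -0.28 with median scaling, -0.12 with normexp, -0.14 within slide 1 and -0.27 within slide 2. The medians of the other groups moved by less than the spread between arrays.

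Of the 43 members, 31 kept their sign in all 24 alternatives, and 27 were called in none. Those that changed sign with all arrays of the fit kept were near 0. CNOT2 went to -0.065 with median scaling, -0.034 with normexp and -0.020 within slide 2, and LSM5 to -0.040, -0.036 and -0.022 in the same settings. PAN2 went to -0.0042 with median scaling and -0.070 within slide 1, and DIS3L to 0.039 within slide 1. XRN2 went to 0.0037 with the 75th percentile of detected probes. UPF2 went to 0.0092 with quantile normalization, 0.0084 with the detected percentile, 0.028 within slide 2 and 0.032 with the mean of its probes, and SMG6 to 0.023 within slide 2. When 1 array was left out, the differences that crossed 0 ran from -0.15 to 0.032 for EXOSC4, -0.19 to 0.021 for DIS3L, -0.048 to 0.044 for CNOT2, -0.25 to 0.059 for CNOT3, -0.033 to 0.18 for PAN2, -0.14 to 0.088 for DCPS, -0.055 to 0.12 for LSM5, -0.071 to 0.044 for XRN2, -0.0081 to 0.15 for UPF1, -0.11 to 0.089 for UPF2, -0.11 to 0.056 for UPF3B and -0.10 to 0.028 for SMG6. The cause was not tested.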
